A study of Homo sapiens with 12 samples.

Results

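The genes described here encode the nuclear NOTCH complex and the machinery that removes NOTCH. They are RBPJ, the Mastermind coactivator genes MAML1, MAML2 and MAML3, the corepressor gene SPEN, and FBXW7, NUMB, NUMBL and ITCH. Members were chosen by gene symbol from the deposited expression table, and 8 of the 9 symbols were found among its 25146 genes. NUMB was not analysed here. All 8 passed the filter on low values, as did 13840 genes in all, although MAML3 passed it through the treated libraries alone, and MAML2 through the Molt-4 libraries alone.

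RNA had been sequenced from Jurkat and Molt-4, established human lines of T-cell acute lymphoblastic leukaemia, abbreviated T-ALL, with 3 libraries in each of 4 groups. Untreated cells of each line were compared with cells given 2 µM chidamide (tucidinostat), an oral benzamide inhibitor of histone deacetylases. The protocol states 48 h, whereas the treated libraries carry labels of 48, 49 and 50 h in step with replicate number, so labelled time and replicate cannot be told apart. Each group is 1 line in culture, nothing in the labels says that its libraries came from separate cultures, and the p-values therefore measure the spread between these libraries, which may be technical.

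NOTCH receptors release an intracellular domain that travels to the nucleus and binds RBPJ, a protein that sits on DNA. Without that domain RBPJ holds corepressors such as SPEN. With it, a Mastermind protein docks on the joint surface and brings in acetyltransferases and the CDK8 kinase module. The same phosphorylation marks the domain for FBXW7, the substrate receptor of a cullin-based ubiquitin ligase, and in T-ALL both NOTCH1 and FBXW7 are often mutated. NUMB-family adaptors and the HECT ligase ITCH act earlier, on the receptor at the membrane and in endosomes.

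Values are FPKM, fragments scaled to gene length and library size, given as deposited. Each value covers all cells of a library, so fewer cells expressing a gene and less of its RNA per cell cannot be told apart. FPKM are relative to the library, so a change in total RNA per cell would not show. Without read counts the depth is unknown. The libraries summed to between 698435 and 869059 FPKM. The 7SL RNA genes held 10.1% of the sum in untreated Molt-4 replicate 3, against 2.25% to 5.35% elsewhere. Untreated Jurkat replicate 3 stood apart: its log2 ratios to each fellow untreated library had an SD of 0.332 and 0.337, which was 0.233 to 0.269 for the other pairs within groups. T-cell markers were present in both lines, at 11 of 12 with a mean of at least 1 FPKM in each untreated group and 12 of 12 in each treated group. In the Molt-4 libraries, however, all 6 erythroid markers were also present, with a summed level of 2021 to 2134 FPKM untreated and 2957 to 3017 FPKM treated, against 0.95 to 2.13 and 7.63 to 80.9 FPKM in Jurkat. Of 6 myeloid markers 1 reached 1 FPKM in untreated Molt-4 and 3 in treated Molt-4, where their sum went from 6.71 to 7.31 up to 93.6 to 98.5 FPKM. Of the 5 B-cell markers measured 1 reached 1 FPKM in untreated and 3 in treated Molt-4, where their sum went from 3.65 to 5.72 up to 18.6 to 23.4 FPKM, and in Jurkat it went from 24.9 to 29.8 down to 11.8 to 12.8 FPKM. The summed T-cell markers went from 997 to 1090 FPKM down to 712 to 742 FPKM there, and from 2292 to 2377 down to 1283 to 1344 FPKM in Jurkat. Erythroid genes are not usual for a T-cell line, so Molt-4 here means the libraries so labelled. The part of these markers in the Molt-4 values below was not tested.

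The start regions of the Mastermind genes are shown first, because these paralogs share a docking role in the complex and their levels moved in opposite directions. The windows are the RefSeq promoter sequences of GRCh38.p14, 300 bases from 250 before to 50 after the annotated start, read 5′ to 3′ on the gene's strand. MAML1 lies at chr5:179732572-179732871 on the plus strand, MAML2 at chr11:96343146-96343445 and MAML3 at chr4:140154135-140154434, both on the minus strand. Capitals mark GC boxes (GGGCGG, or CCGCCC for the other strand).
MAML1: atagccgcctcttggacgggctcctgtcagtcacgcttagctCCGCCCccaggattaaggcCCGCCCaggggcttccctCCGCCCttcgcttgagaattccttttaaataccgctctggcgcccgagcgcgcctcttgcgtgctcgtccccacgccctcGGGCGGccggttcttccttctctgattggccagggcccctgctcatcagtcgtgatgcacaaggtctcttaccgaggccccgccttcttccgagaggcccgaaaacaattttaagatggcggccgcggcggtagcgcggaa
MAML2: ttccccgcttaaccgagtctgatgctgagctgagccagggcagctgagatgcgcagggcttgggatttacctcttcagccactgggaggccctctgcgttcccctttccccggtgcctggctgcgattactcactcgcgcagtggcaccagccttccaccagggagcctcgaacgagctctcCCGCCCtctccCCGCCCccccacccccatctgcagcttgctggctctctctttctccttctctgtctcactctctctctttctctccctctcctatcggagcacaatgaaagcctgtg
MAML3: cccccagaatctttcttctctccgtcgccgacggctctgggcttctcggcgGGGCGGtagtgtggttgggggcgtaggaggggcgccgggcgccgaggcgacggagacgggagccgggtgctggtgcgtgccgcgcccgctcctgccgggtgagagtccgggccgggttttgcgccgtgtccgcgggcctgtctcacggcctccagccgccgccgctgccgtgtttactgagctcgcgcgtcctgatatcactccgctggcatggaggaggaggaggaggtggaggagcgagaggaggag
All of these windows held a GC box, 4 in MAML1, 2 in MAML2 and 1 in MAML3, as did 45.0% of 35116 RefSeq promoter windows of this length. The RBPJ core motif (TGGGAA, or TTCCCA on the other strand) was found in none of them and in 24.0% of all windows. MAML3 had the most CpG dinucleotides, 37, followed by 29 in MAML1 and 13 in MAML2, against a median of 14 over all windows. Their GC content was 71.3%, 63.3% and 61.3% in that order, and the median was 58.7%. Every member had an entry, and among the other members tested the RBPJ motif occurred in 1 of 5 RBPJ windows, at 2 places, and once in the SPEN window. No CACGTG E-box was found in the window of any member, and 7.26% of all windows held one. A TATA box (TATAAA, either strand) occurred in 1 RBPJ and 1 FBXW7 window, against 11.5% of all windows.

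The first question was what chidamide did to these genes in each line. In Jurkat 4 of the 8 rose and 2 fell, and in Molt-4 3 rose and 2 fell. MAML2, MAML3 and NUMBL rose in both lines and MAML1 and ITCH fell in both, RBPJ rose in Jurkat, and SPEN and FBXW7 were called in neither. A gene is referred to as called, and as risen or fallen, at an adjusted p under 0.05 in limma, fitted across 13840 genes with Benjamini-Hochberg adjustment. Most genes changed with this drug: 56.3% of all genes tested were called in Jurkat (30.9% higher and 25.4% lower) and 60.0% in Molt-4 (35.4% higher and 24.6% lower). Of the members, 75% and 62.5% were called, which with 8 genes is near that background, and MAML3 had to differ between groups to pass the filter at all. The treated and untreated libraries of a line did not overlap for 6 of 8 members in Jurkat and 5 of 8 in Molt-4, against 60.7% and 67.3% of all genes. Their median log2 change was 0.23 in Jurkat and 0.026 in Molt-4, beside 0.037 and 0.076 over all genes. Under quantile normalization the split over all genes was 3633 higher and 4861 lower in Molt-4, against 4903 and 3401, and the median of all genes moved to -0.082. In Jurkat the split was 3709 and 3946 under quantile normalization and 4839 and 2921 with equal totals without 7SL RNA, against 4277 and 3509. Log2 changes here are differences of log2(FPKM + 1) ± SE, a scale that understates the change of weakly expressed genes.

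**Figure D1:**
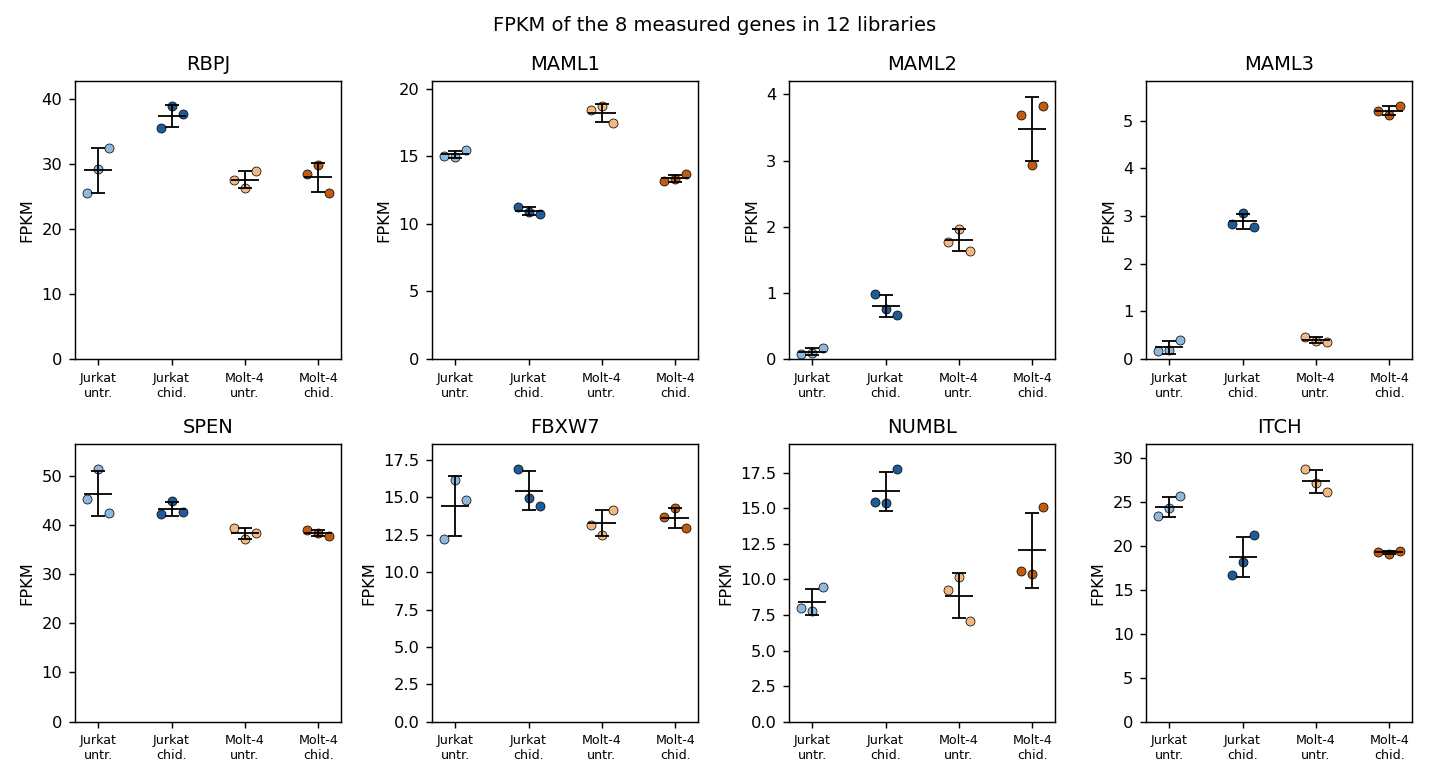
FPKM (y axis, from 0) of the 8 measured genes in the 3 libraries of each group (x axis). Points are libraries, in order of replicate number, and bars are the mean ± SD; MAML3 and MAML2 are higher in all treated libraries of a line than in its untreated ones, and MAML1 and ITCH are lower.

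RBPJ, the DNA-binding core of the complex, had the second highest mean FPKM of the members in every group. Untreated Jurkat libraries held 25.5, 29.2 and 32.4 FPKM and treated ones 35.5, 38.9 and 37.6 FPKM. The groups did not overlap, and replicate 3, which stood apart, was the highest of the untreated libraries. The log2 change was 0.36 ± 0.088 (adjusted p = 0.00406), or 28.6% on the FPKM means. Molt-4 was at 27.5, 26.3 and 28.9 FPKM untreated and 28.4, 29.9 and 25.5 FPKM treated, and its groups overlapped. The log2 change there was 0.016 ± 0.088 (adjusted p = 0.885), with a 95% interval of -0.18 to 0.21. The difference of the responses, Molt-4 minus Jurkat, was -0.34 ± 0.12 and missed the threshold (adjusted p = 0.0544, range over the alternatives 0.0120 to 0.128). It passed in 5 of 20 alternatives, among them the fits without untreated Jurkat replicate 3 (0.0120) and without treated Molt-4 replicate 2 (0.0474). Processed pseudogenes of RBPJ are annotated and have no row of their own in the table, so how reads shared with them were counted is not known.

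The Mastermind genes differed by more than an order of magnitude before treatment. MAML1, the founding coactivator of the family, carried nearly all of the signal, and it fell in both lines. Untreated Jurkat had 15.01, 14.99 and 15.45 FPKM and treated Jurkat 11.3, 10.9 and 10.7 FPKM. Untreated Molt-4 had 18.5, 18.7 and 17.5 FPKM and treated Molt-4 13.2, 13.3 and 13.7 FPKM. In neither line did the groups overlap, and the libraries of a group lay close together. The log2 changes were -0.43 ± 0.061 in Jurkat and -0.42 ± 0.061 in Molt-4 (adjusted p = 7.47e-05 and 8.99e-05). On the mean FPKM these were changes of -27.6% and -26.5%. Their difference was 0.016 ± 0.086 (adjusted p = 0.910, 95% interval -0.17 to 0.20).

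MAML3, a paralog that serves the same docking role, was barely detected without drug and rose the most of all members. In untreated Jurkat it stood at 0.16, 0.18 and 0.40 FPKM and in treated Jurkat at 2.83, 3.07 and 2.77 FPKM. In untreated Molt-4 it stood at 0.46, 0.38 and 0.35 FPKM and in treated Molt-4 at 5.20, 5.11 and 5.30 FPKM. Every treated library was several-fold above every untreated library of its line, and the ratio of the mean FPKM was 11.7 in Jurkat and 13.1 in Molt-4. These were log2 changes of 1.65 ± 0.095 and 2.15 ± 0.095 (adjusted p = 4.09e-08 and 2.83e-09), and 3.17 and 3.42 with a pseudocount of 0.1. MAML3 passed the filter through the treated libraries alone and had to be higher there to be tested. The changes are therefore given as a description, and their p-values do not count as support. A larger rise was seen in 2.76% of all genes tested in Jurkat and 2.50% in Molt-4. The rise was greater in Molt-4 on this scale, by 0.51 ± 0.13 (adjusted p = 0.0128). In this comparison 1 of 8 members was called, against 31.9% of all genes tested, and 19.8% called higher as it was (2745 higher and 1671 lower, 2261 and 2655 under quantile normalization, which moved the median of all genes from 0.036 to -0.064, and 2254 and 2180 with equal totals without 7SL RNA). That call was lost with a pseudocount of 0.1 (0.25 ± 0.33, adjusted p = 0.611) and with equal totals without 7SL RNA (adjusted p = 0.0842, range 0.00762 to 0.611). The gene MGST2 overlaps MAML3 on the opposite strand, and whether the counting used strand is not given in the sources used here. MGST2 was listed at 0 in all treated Jurkat libraries. In Molt-4 it rose from 8.01 ± 0.968 to 11.3 ± 0.722 FPKM (adjusted p = 0.00645), and its difference of responses, 0.57 ± 0.17 (adjusted p = 0.0229), was near that of MAML3. The part of shared reads in the MAML3 values was not tested.

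MAML2, the member of the family whose fusions drive some salivary gland tumours, rose in both lines from unequal starting levels. Untreated Jurkat held 0.07, 0.09 and 0.17 FPKM and treated Jurkat 0.99, 0.75 and 0.66 FPKM. Untreated Molt-4 held 1.77, 1.97 and 1.64 FPKM and treated Molt-4 3.69, 2.93 and 3.82 FPKM. Thus treated Jurkat remained below untreated Molt-4 in every library. All Jurkat libraries were under the 1 FPKM of the filter on low values, so the Jurkat change and ratio rest on values near the floor. On the log2 scale MAML2 changed by 0.69 ± 0.11 and 0.68 ± 0.11 (adjusted p = 0.000174 and 0.000189), with ratios of the mean FPKM of 7.27 and 1.94. On the log2(FPKM + 1) scale these responses differed by -0.017 ± 0.15 (adjusted p = 0.947), but with a pseudocount of 0.1 the Jurkat change was 2.11 and the difference -1.20 ± 0.31 (adjusted p = 0.0140, range 0.0140 to 0.989). Under quantile normalization the change fell to 0.39 in Jurkat, and the call in Molt-4 was lost (0.094 ± 0.12, adjusted p = 0.511, range 0.000140 to 0.511).

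**Figure D2:**
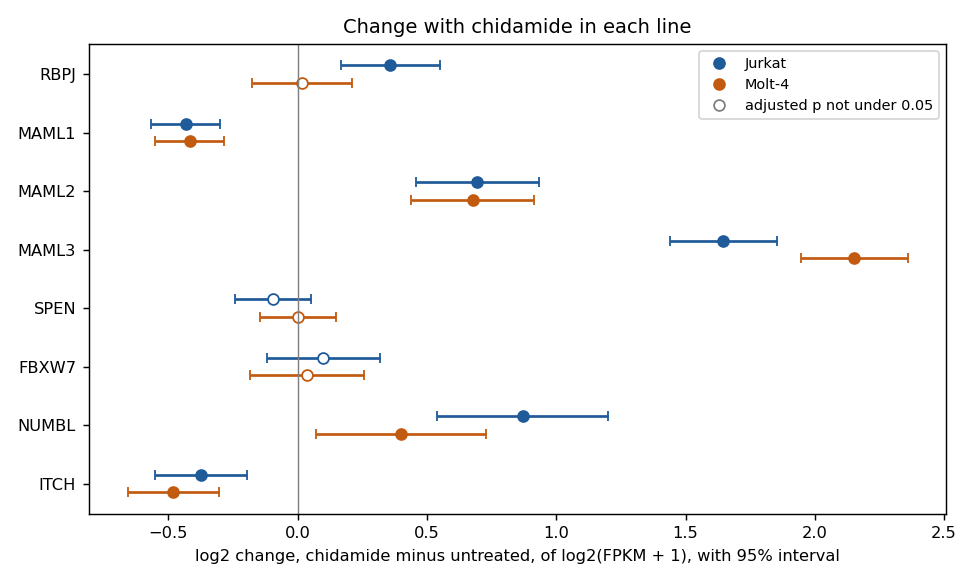
Log2 change with chidamide of each gene (x axis, difference of log2(FPKM + 1)) in Jurkat and Molt-4, with the 95% interval of the limma fit on 3 treated and 3 untreated libraries per line. Filled points have an adjusted p under 0.05; MAML3 lies farthest to the right, at 1.65 and 2.15, and the intervals of SPEN and FBXW7 include 0 in both lines.

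Since FPKM are scaled by gene length, the Mastermind genes can be set side by side within a library. MAML1 made up 97.7% ± 1.12 (SD, n = 3) of their summed FPKM in untreated Jurkat and 74.8% ± 0.858 in treated Jurkat. In Molt-4 its share was 89.3% ± 0.474 untreated and 60.7% ± 1.49 treated. MAML3 went from 1.58% ± 0.801 to 19.7% ± 1.05 in Jurkat and from 1.94% ± 0.244 to 23.6% ± 0.323 in Molt-4. The share of MAML2 went from 0.703% ± 0.317 to 5.44% ± 0.997 in Jurkat and from 8.78% ± 0.505 to 15.7% ± 1.76 in Molt-4. No treated library overlapped an untreated library of its line in any of these shares. The sum itself moved little, down from 15.5 ± 0.445 to 14.7 ± 0.470 FPKM in Jurkat and up from 20.4 ± 0.826 to 22.1 ± 0.705 FPKM in Molt-4. These sums did not overlap between treated and untreated libraries of a line either. The shares are given as a description and were not tested.

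**Figure D3:**
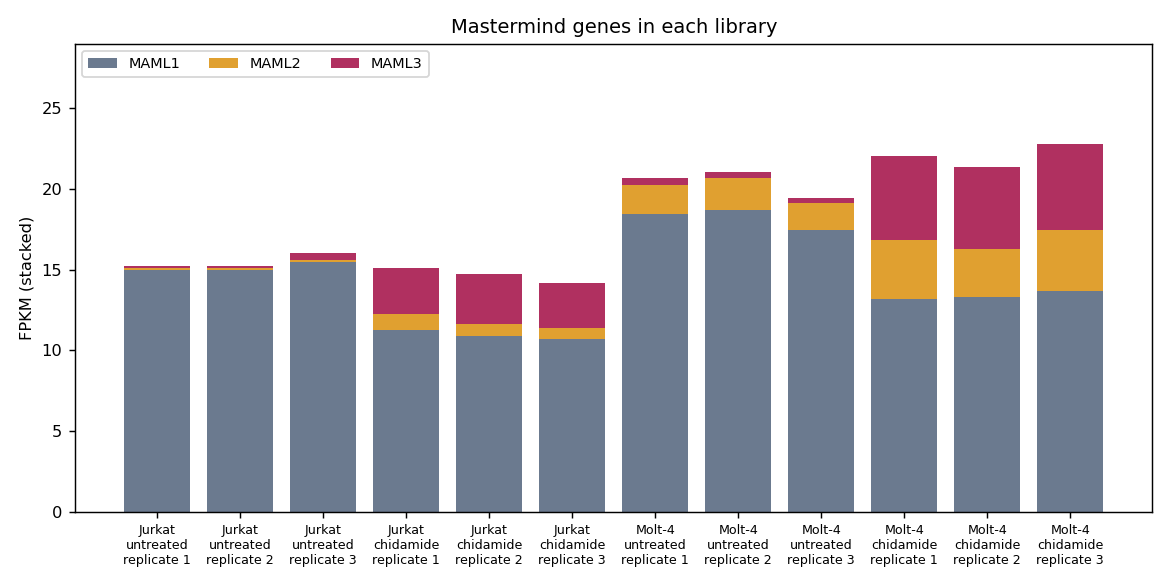
Stacked FPKM of MAML1, MAML2 and MAML3 (y axis, from 0) in each of the 12 libraries (x axis). The MAML1 segment is shorter and the MAML3 segment taller in the treated libraries of both lines, while the whole bars stay between 14.2 and 22.8 FPKM.

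SPEN (also called SHARP), the large RNA-binding corepressor that occupies RBPJ in the absence of NOTCH, was the most abundant member in every group. Jurkat libraries held 45.2, 51.3 and 42.4 FPKM untreated and 42.2, 44.8 and 42.6 FPKM treated. Molt-4 libraries held 39.4, 37.1 and 38.2 FPKM untreated and 39.0, 38.3 and 37.6 FPKM treated. Treated and untreated libraries overlapped in both lines. The log2 changes were -0.095 ± 0.067 (adjusted p = 0.252, 95% interval -0.24 to 0.051) and 0.0024 ± 0.067 (adjusted p = 0.979, 95% interval -0.14 to 0.15). Without untreated Jurkat replicate 3, SPEN was called lower in Jurkat (-0.16 ± 0.060, adjusted p = 0.0457, range 0.0457 to 0.945). The antisense gene FLJ37453 overlaps SPEN on the opposite strand. It was at 2.93 ± 1.01 and 2.94 ± 0.322 FPKM in untreated and treated Jurkat (limma, adjusted p = 0.901). In Molt-4 it rose from 2.25 ± 0.251 to 3.44 ± 0.669 FPKM (adjusted p = 0.0393). The part of shared reads in the SPEN values was not tested.

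Among the turnover genes, FBXW7 was not called in any of the 4 comparisons. It stood at 12.2, 16.2 and 14.8 FPKM in untreated and 16.9, 14.99 and 14.4 FPKM in treated Jurkat. In Molt-4 it stood at 13.2, 12.5 and 14.2 FPKM untreated and 13.7, 14.3 and 13.0 FPKM treated. The groups overlapped in both lines, and untreated Jurkat was the widest of the 4. The log2 changes were 0.10 ± 0.10 (adjusted p = 0.428, 95% interval -0.12 to 0.32) and 0.035 ± 0.10 (adjusted p = 0.786, 95% interval -0.18 to 0.25). Its antisense gene FBXW7-AS1 was at most 0.46 FPKM in any library.

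ITCH, the ubiquitin ligase that marks NOTCH for the lysosome, fell in both lines. Jurkat held 23.4, 24.3 and 25.6 FPKM untreated and 16.8, 18.1 and 21.2 FPKM treated. Molt-4 held 28.8, 27.1 and 26.2 FPKM untreated and 19.4, 19.1 and 19.5 FPKM treated. Both comparisons were free of overlap, with treated Molt-4 the tightest of the 4 groups. ITCH had log2 changes of -0.37 ± 0.081 and -0.48 ± 0.081 (adjusted p = 0.00180 and 0.000269), and they differed by -0.11 ± 0.11 (adjusted p = 0.520, 95% interval -0.36 to 0.14).

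NUMBL, the NUMB-like endocytic adaptor, rose in both lines, less firmly in Molt-4. Untreated Jurkat held 7.99, 7.76 and 9.49 FPKM and treated Jurkat 15.4, 15.4 and 17.8 FPKM. Untreated Molt-4 held 9.28, 10.2 and 7.09 FPKM and treated Molt-4 10.6, 10.4 and 15.1 FPKM. In Molt-4 the groups were separated by a narrow gap, and treated replicate 3 stood well above the other treated libraries. The log2 changes were 0.87 ± 0.15 (adjusted p = 0.000376) and 0.40 ± 0.15 (adjusted p = 0.0376). In Molt-4 the call was lost in 7 of 21 alternatives (range of adjusted p 0.0241 to 0.209), among them the fits without untreated replicate 1 (0.0535), without untreated replicate 3 (0.26 ± 0.15, adjusted p = 0.160) and without treated replicate 3 (0.24 ± 0.14, adjusted p = 0.173). The difference of the responses was -0.47 ± 0.21 (adjusted p = 0.118). It was called without untreated Molt-4 replicate 3 (adjusted p = 0.0444) or treated Molt-4 replicate 3 (adjusted p = 0.0280, range 0.0280 to 0.240).

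The untreated lines were then compared with each other. Of the 8 genes, 2 were higher and 1 lower in Molt-4, against 65.3% of all genes tested (27.9% higher and 37.5% lower). Under median-of-ratios scaling, which moved the median of all genes from -0.075 to 0.013, 3 members were higher and none lower, and the split over all genes turned from 3857 higher and 5187 lower to 4646 and 4344. The widest gap was that of MAML2, a log2 difference of 1.33 ± 0.11 (adjusted p = 3.92e-07, and 3.20 with a pseudocount of 0.1), a 16.3-fold ratio of the mean FPKM. Since MAML2 passed the filter through the Molt-4 libraries alone, it had to be higher in Molt-4 to be tested. The MAML2 gap is therefore given as a description, and its p-value does not count as support. It is 1 of the 2 members counted as higher. MAML1 was 0.25 ± 0.061 higher (adjusted p = 0.00320). SPEN was lower in Molt-4, by -0.27 ± 0.067 (adjusted p = 0.00401), a call lost under median-of-ratios scaling (-0.15 ± 0.070, adjusted p = 0.0727, range 0.000622 to 0.0727). RBPJ, FBXW7 and NUMBL differed by -0.066 ± 0.088, -0.10 ± 0.10 and 0.056 ± 0.15 (adjusted p = 0.534, 0.394 and 0.766). ITCH differed by 0.16 ± 0.081 (adjusted p = 0.108), and was called under median-of-ratios scaling (0.0123) and quantile normalization (0.0286, range 0.0123 to 0.353). For MAML3 the value was 0.17 ± 0.095 (adjusted p = 0.137), called with a pseudocount of 0.1 (0.58 ± 0.23, adjusted p = 0.0441) and without untreated Jurkat replicate 3 (0.25 ± 0.090, adjusted p = 0.0278, range 0.0278 to 0.563). The libraries of the lines did not overlap for 4 of 8 members, against 66.7% of all genes. This comparison shares its untreated libraries with those of the treatment.

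By level, SPEN led in each group, followed by RBPJ and ITCH. The ranges of RBPJ and ITCH overlapped in both untreated groups and were apart in both treated ones. MAML1 and FBXW7 came next without drug, and their ranges overlapped in Jurkat. After treatment NUMBL stood above MAML1 in Jurkat, at 16.2 ± 1.37 against 10.96 ± 0.274 FPKM, with no overlap. In treated Molt-4 the ranges of FBXW7 and MAML1 overlapped, as did those of MAML1 and NUMBL. MAML2 and MAML3 were the lowest throughout, MAML3 below MAML2 in untreated Molt-4 and above it in both treated groups.

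For each member the tested genes of most similar pattern were sought by Pearson's r of log2(FPKM + 1) over the 12 libraries. These libraries share line and treatment, so r is a description of the group means for the most part. Closest to MAML3 were PRPH and NES (r = 0.996 for both), the genes of the intermediate filaments peripherin and nestin. Like MAML3, both passed the filter on low values through the treated libraries alone, so part of this shared pattern was required for entry. NES went from 0.0300 ± 0.0173 to 3.50 ± 0.300 FPKM in Jurkat and from 0.203 ± 0.0321 to 6.11 ± 0.373 FPKM in Molt-4. The nearest to MAML2 were DMD (0.993), the dystrophin gene, and the mannosidase gene MAN1A1 (0.991). For MAML1 they were TAF9 (0.987) and ANKLE1 (0.985), for ITCH FBXW5 (0.966) and PTPRN2 (0.958), and for RBPJ CMIP (0.956) and POLR1D (0.953). NUMBL was nearest to BCL2L11 (0.948) and DZIP3 (0.936), and SPEN to UCP3 (0.943) and CDC123 (0.939). FBXW7, which varied little between groups, had the weakest matches, TMEM234 (0.871) and USP54 (0.851).

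The partners of these proteins were followed in 6 lists. Their counts stand against all genes tested, of which 56.3% were called in Jurkat (30.9% higher and 25.4% lower) and 60.0% in Molt-4 (35.4% higher and 24.6% lower), with medians of 0.037 and 0.076. Of the corepressors and other partners that meet RBPJ, 20 of 21 listed genes were tested. In Jurkat 10 were higher and 2 lower, and in Molt-4 6 were higher and 5 lower. CTBP2, a C-terminal binding protein corepressor, went from 0.260 ± 0.131 to 2.73 ± 0.153 FPKM in Jurkat (adjusted p = 2.19e-05) and from 0.853 ± 0.569 to 3.81 ± 0.106 FPKM in Molt-4 (adjusted p = 4.16e-05). Its untreated libraries alone would not have passed the filter on low values. The CTBP2 changes are therefore given as a description, and their p-values do not count as support. L3MBTL3, which links RBPJ to a histone demethylase, rose from 4.57 ± 0.443 to 13.5 ± 2.35 FPKM in Jurkat and from 10.7 ± 0.872 to 16.6 ± 1.95 FPKM in Molt-4 (adjusted p = 2.61e-06 and 0.00195). The Groucho-type corepressor gene TLE1 had log2 changes of 0.88 ± 0.089 and 0.96 ± 0.089 (adjusted p = 4.77e-06 and 1.81e-06). The share called, 60% in Jurkat and 55% in Molt-4, was near that of all genes, and the median log2 change of the list was 0.21 and 0.12.

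Of the coactivators that work with Mastermind, 11 of 12 were tested, and 3 were higher and 3 lower in each line, 54.5% of the list. The acetyltransferase gene KAT2A fell, from 46.4 ± 3.15 to 23.9 ± 0.300 FPKM in Jurkat and from 61.1 ± 3.07 to 34.9 ± 2.39 FPKM in Molt-4 (adjusted p = 3.27e-07 and 9.82e-07). Its paralog KAT2B rose by 0.38 ± 0.12 and 0.43 ± 0.12 (adjusted p = 0.0155 and 0.00802), calls lost under quantile normalization (0.157 in Jurkat, range 0.00790 to 0.157, and 0.497 in Molt-4, range 0.00284 to 0.497). In Jurkat the call of KAT2B was also lost without untreated replicate 1 (0.0678) or treated replicate 1 (0.0521). The arginine methyltransferase gene CARM1 went from 59.5 ± 1.76 to 35.3 ± 3.56 FPKM in Jurkat (adjusted p = 3.50e-06), and its log2 change in Molt-4 was -0.25 (adjusted p = 0.00951). The CDK8 paralog CDK19 went from 8.54 ± 1.31 to 12.6 ± 0.450 FPKM in Molt-4 (adjusted p = 0.00560). In Jurkat CDK19 had a log2 change of 0.34 (adjusted p = 0.0484, range 0.00580 to 0.219), a call lost in 14 of 21 alternatives. The list's medians were 0.16 in Jurkat and -0.074 in Molt-4, and its 6 calls in Jurkat went to 3 without untreated replicate 1 and under quantile normalization.

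FBXW7 works as part of a cullin-RING ligase. Of 10 genes of the ligase and its regulators, 1 was higher and 4 lower in Jurkat and none higher and 5 lower in Molt-4, with medians of -0.14 and -0.15. In each line 50% of the list was called, which with 10 genes is near the share of all genes. RBX1, the RING subunit, fell from 82.9 ± 8.15 to 61.2 ± 2.08 FPKM in Jurkat and from 72.3 ± 5.43 to 53.0 ± 1.70 FPKM in Molt-4 (adjusted p = 0.000347 and 0.000262). The scaffold gene CUL1 fell from 40.9 ± 1.21 to 28.7 ± 0.309 FPKM in Molt-4 (adjusted p = 2.19e-05), and was at 34.3 ± 2.75 and 31.7 ± 0.281 FPKM in Jurkat (adjusted p = 0.158, called without untreated replicate 3 at 0.00824, range 0.00824 to 0.729). GSK3B, a kinase that phosphorylates FBXW7 substrates, rose by 0.41 ± 0.070 in Jurkat (adjusted p = 0.000328) and was not called in Molt-4 (-0.078, adjusted p = 0.357). Its paralog GSK3A fell by 0.34 ± 0.062 in Molt-4 (adjusted p = 0.000533). In Jurkat GSK3A had a log2 change of -0.17 (adjusted p = 0.0386, range 0.0137 to 0.382), a call lost in 8 of 21 alternatives. GLMN, which encodes a binder of RBX1, fell by 0.24 ± 0.088 in Jurkat (adjusted p = 0.0355, range 0.0179 to 0.144), a call lost in 7 of 21 alternatives. In Molt-4 GLMN had a log2 change of -0.24 (adjusted p = 0.0348, range 0.00397 to 0.146), a call lost in 5 of 21. The Jurkat count fell from 5 to 3 without untreated replicate 1, untreated replicate 2 or treated replicate 3, under quantile normalization or equal totals without 7SL RNA, and with the Jurkat libraries fitted alone.

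Of 12 genes for NEDD4-type ligases, the family of ITCH, and their adaptors 11 were tested, and 7 were higher and none lower in Jurkat and 6 higher and 1 lower in Molt-4. In each line 63.6% of the list was called, near the share of all genes. The median log2 change was 0.54 and 0.35. NDFIP1, an adaptor that activates ITCH, rose from 35.1 ± 3.0 to 51.3 ± 2.01 FPKM in Jurkat and from 33.2 ± 2.53 to 67.8 ± 4.63 FPKM in Molt-4 (adjusted p = 0.000102 and 4.27e-07). ARRDC3, an arrestin-like adaptor, rose from 2.22 ± 0.645 to 10.7 ± 0.920 FPKM in Jurkat and from 5.25 ± 0.0681 to 9.65 ± 1.28 FPKM in Molt-4. The ligase gene NEDD4L rose by 0.97 ± 0.14 and 0.74 ± 0.14, and SMURF2 by 1.30 ± 0.11 in Jurkat (adjusted p = 7.31e-05, 0.000558 and 8.27e-07). In Molt-4 SMURF2 rose by 0.50 (adjusted p = 0.00146).

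**Figure D4:**
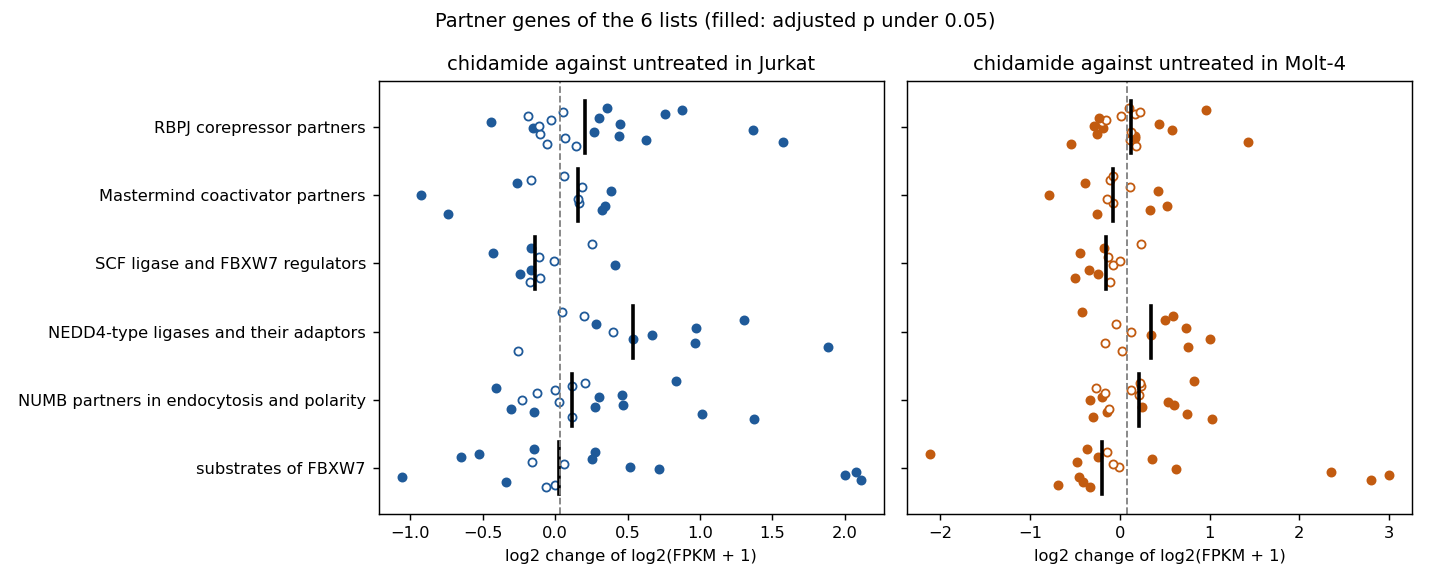
Log2 change with chidamide (x axis, difference of log2(FPKM + 1)) of the tested genes of each partner list (rows) in Jurkat and Molt-4. Points are genes, filled where the adjusted p is under 0.05, black bars are list medians and the dashed line is the median of all genes tested; the NEDD4-type list has the highest medians, 0.54 and 0.35.

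NUMB-family adaptors work with the AP2 endocytic complex and polarity kinases. Of 18 genes listed as NUMB partners, which also include the ubiquitin ligase genes LNX1, LNX2, MDM2 and CBL, 17 were tested. In Jurkat 7 were higher and 3 lower, in Molt-4 6 higher and 4 lower, 58.8% of the list in each line, with medians of 0.12 and 0.22. AAK1, the kinase that phosphorylates AP2 and NUMB, rose from 18.8 ± 2.08 to 50.4 ± 3.57 FPKM in Jurkat and from 21.2 ± 0.939 to 44.3 ± 3.13 FPKM in Molt-4 (adjusted p = 7.76e-08 and 6.80e-07). The AP2 subunit gene AP2A2 rose from 34.9 ± 1.30 to 71.4 ± 4.95 FPKM and from 17.5 ± 3.49 to 29.8 ± 1.44 FPKM. PRKCZ, an atypical protein kinase C gene, rose by 0.83 ± 0.15 and 0.82 ± 0.15, the latter lost under quantile normalization (adjusted p = 0.0786, range 5.97e-05 to 0.0786).

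FBXW7 acts on proteins, and only the RNA of its substrates was measured. Of 16 substrate genes, 7 were higher and 5 lower in Jurkat and 5 higher and 8 lower in Molt-4, 75% and 81.2% of the list, with medians of 0.029 and -0.19. GATA3, KLF2 and JUN, all transcription factor genes, rose in both lines. JUN went from 3.19 ± 0.151 to 15.7 ± 0.638 FPKM in Jurkat and from 2.94 ± 0.335 to 30.5 ± 1.16 FPKM in Molt-4, and KLF2 from 6.47 ± 0.467 to 30.5 ± 2.15 FPKM and from 0.807 ± 0.336 to 8.24 ± 1.58 FPKM. For GATA3 the log2 changes were 2.11 ± 0.13 and 2.80 ± 0.13. NOTCH1, whose product FBXW7 removes in the nucleus, had a log2 change of -2.11 ± 0.087 in Molt-4, from 77.3 ± 3.72 to 17.2 ± 0.796 FPKM (adjusted p = 1.83e-09), and of -0.53 ± 0.087 in Jurkat (adjusted p = 0.000264). MYC went from 259.7 ± 34.2 to 164 ± 2.48 FPKM in Jurkat (adjusted p = 2.11e-05) and from 231 ± 11 to 195 ± 1.33 FPKM in Molt-4 (adjusted p = 0.0182, range 0.000168 to 0.0636), the latter call being lost without untreated replicate 1 (0.0518) or replicate 2 (0.0636).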

How the data were processed

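The authors deposited one FPKM value for each gene and library, rounded to 2 decimals. Per the submitters' processing notes, STAR, HTSeq and DESeq2 were used with genome build hg19, with no versions and no account of how FPKM was obtained. Libraries were mapped to groups by their titles, taking their J for Jurkat and M for Molt-4 from the labels' growth protocol. The filter on low values asked for 1 FPKM or more in 3 or more of the 12 libraries. The log2(FPKM + 1) values were fitted with 1 mean per group in limma 3.58.1 under R 4.3.3 (lmFit, then eBayes with trend, 8 residual degrees of freedom), two-sided, with Benjamini-Hochberg adjustment over 13840 genes. The fit was tested on simulated data. No sign was seen that replicate numbers pair the libraries, so no block was used in the fit.

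The members, the 6 partner lists and the alternatives were chosen with earlier results of these data known. Named by rule were all members, for each list the 3 called genes with the largest change in each line, the 2 genes most like each member, NOTCH1 and MYC. Promoter sequences are from RefSeq (GRCh38.p14) and were matched by symbol. No hg19 coordinates were used.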

Additional observations from a re-analysis of the deposited data

Results flagged for a closer look

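In the main fit MAML3 is the one member whose responses in the lines differed by the test of the difference itself. It rose more in Molt-4 than in Jurkat, by 0.506 on the log2(FPKM + 1) scale (limma, adjusted p = 0.0128), in a comparison where 31.9% of all genes tested were called. Ratios of the mean FPKM were 13.1 in Molt-4 and 11.7 in Jurkat. The MAML3 call was lost with a pseudocount of 0.1 (adjusted p = 0.611), where MAML2 was called instead (-1.20, adjusted p = 0.0140). The MAML3 call was also lost with equal totals without 7SL RNA (adjusted p = 0.0842), where RBPJ was called instead (-0.42, adjusted p = 0.0219). Erythroid markers summed to 2957 to 3017 FPKM in the treated Molt-4 libraries and to 7.63 to 80.9 FPKM in the treated Jurkat libraries. The overlapping gene MGST2 had a difference of 0.57 (adjusted p = 0.0229). The part of either in this difference was not tested.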

How the results depend on the processing

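Depth is unknown and 3 libraries per group limit precision. Directions and calls of MAML1, MAML3, NUMBL, RBPJ and ITCH in Jurkat, and of MAML1, MAML3 and ITCH in Molt-4, held in all alternatives, except that MAML3 was the only one of them still called when a change of at least 2-fold was also required. The calls of MAML3 with chidamide are a description, since it passed the filter through treated libraries alone. So is the call of MAML2 between untreated lines, since MAML2 passed through Molt-4 libraries alone. With a change of at least 2-fold required, 1 member was called in Jurkat, 1 in Molt-4, 0 in the difference and 1, MAML2, between untreated lines. Over all genes the counts were then 1519, 1898, 1202 and 2707, and over the partner lists 10, 7, 4 and 10, against 52, 52, 26 and 57 without it. In Molt-4, 3 members were called under quantile normalization. The difference had 2 called members under median-of-ratios scaling and 2 under quantile normalization, and 1 to 2 with a library left out, being 2 without untreated Jurkat replicate 3, untreated Molt-4 replicate 3, or treated Molt-4 replicate 2 or 3. At FPKM of at least 5 in 3 libraries, MAML2 has no value, and the difference has none within the groups compared alone. Quantile normalization moved the Mastermind shares. For MAML1, MAML2 and MAML3 they were 94.9%, 1.83% and 3.25% in untreated Jurkat, 87.2%, 10.2% and 2.61% in untreated Molt-4 and 66.2%, 12.4% and 21.4% in treated Molt-4, and 76.4% and 18.6% for MAML1 and MAML3 in treated Jurkat. The cause was not tested.

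Signs turned for changes that were not called. Under median-of-ratios scaling the Molt-4 changes of RBPJ, SPEN and FBXW7 were -0.034, -0.048 and -0.013, the MAML1 difference -0.0069, and RBPJ and FBXW7 between untreated lines 0.044 and 0.0041. Under quantile normalization SPEN in Jurkat was 0.0070, FBXW7 in Molt-4 -0.091, the MAML1 difference -0.014, and RBPJ and FBXW7 between untreated lines 0.0013 and 0.016. After scaling to equal totals with 7SL RNA left out, the MAML1 difference was -0.057 and NUMBL between untreated lines -0.0015. With a library left out, FBXW7 ranged from -0.0067 to 0.18 in Jurkat, from -0.0051 to 0.080 in Molt-4 and from -0.15 to 0.042 in the difference. RBPJ ranged from -0.032 to 0.078 and SPEN from -0.019 to 0.024 in Molt-4. The differences of MAML1 and MAML2 ranged from -0.012 to 0.034 and from -0.073 to 0.075, and RBPJ and NUMBL between untreated lines from -0.15 to 0.015 and from -0.041 to 0.19.

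Deviations of same-numbered libraries correlated between -0.086 and 0.041, and those of differently numbered ones between -0.065 and 0.079. No pairing by number was seen, though 3 libraries per group cannot exclude one. In the treated libraries the numbers also follow the labelled time. With the replicate block 7680 genes were called in Jurkat and 8197 in Molt-4, with 6 and 5 members, and the ligase list in Jurkat had 3 called genes instead of 5.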

Other observations

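The relatives MAMLD1 and RBPJL, outside the chosen genes, are named after their values were seen. MAMLD1, a gene with a Mastermind-like domain, was at 0.47, 0.57 and 0.79 FPKM in untreated and 3.84, 4.32 and 3.71 FPKM in treated Jurkat. In Molt-4 it was at 0.05, 0.07 and 0.04 FPKM untreated and 1.37, 1.1 and 0.84 FPKM treated. The log2 changes were 1.63 ± 0.11 and 0.99 ± 0.11, given as a description, since MAMLD1 passed the filter on low values through treated libraries alone and had to be higher there. RBPJL, the RBPJ-like paralog of the exocrine pancreas, was below that filter and not tested. It was at 0.95, 0.88 and 0.59 FPKM in treated Molt-4 and at 0 to 0.14 FPKM in every other library.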
